A study of Saccharomyces cerevisiae with 12 samples.

Results

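The aryl-alcohol dehydrogenase (AAD) genes and the uncharacterised gene YJR154W were examined in wild-type *Saccharomyces cerevisiae* grown in pre-conditioned medium. The 8 named genes were AAD3, AAD4, AAD6, AAD10, AAD14, AAD15, AAD16 and YJR154W. A member was taken where the array platform's annotation gave a probe the same symbol, which found 1 probe for each of 7 genes among 6388 gene probes. No probe carried the name AAD16. The genes were chosen with their ratios of sample over reference RNA already known, so these ratios are given as a description and without a test.

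The question behind the experiment was whether medium left by a slow-growing deletion strain alters expression in other cells. Wild-type cells doubled 2 times in medium (synthetic complete, 2% glucose) that another strain had used before. In the first set of 6 arrays that strain lacked CBF1 (cbf1 medium) or NPL3 (npl3 medium), or was wild type (wild-type medium). In the second set it lacked BUR2 (bur2 medium) or CHO2 (cho2 medium), or was wild type. All RNA on the arrays came from the wild-type strain BY4742, with no deletion, and the common reference was RNA from a single large wild-type culture, whose medium the labels call only "reference". Each of the 6 groups had 2 arrays, one with the sample in Cy3 (array 1) and one with the sample in Cy5 (array 2). The series text speaks of independent cultures, whereas the methods describe cultures that were each measured in dye-swap, so n counts arrays and p-values measure only the spread between arrays, which may be technical.

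Aryl-alcohol dehydrogenases of yeast are named for their likeness to an enzyme of a wood-rotting fungus that reduces aromatic aldehydes to alcohols. They belong to the aldo-keto reductases, which use NADPH, and their substrates in yeast are not settled. Most of the genes lie near chromosome ends, and AAD4 and AAD6 are known as genes induced by oxidative stress through the transcription factor Yap1. AAD6 is annotated as a pseudogene in the RefSeq gene table, which merges it with the neighbouring frame YFL057C. YJR154W is a protein-coding gene of unknown function that lies directly beside AAD10 on chromosome X. The AAD genes resemble each other in sequence, and how far a probe also binds RNA of another copy was not tested.

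Between 74.6% and 84.7% of gene spots were over 2 times their background in both dyes, with lower median signals in the second set. On every array the alpha-specific genes MF(ALPHA)1, MF(ALPHA)2, STE3 and SAG1 lay 28.3 to 439-fold over background in the sample, while the a-specific MFA1, MFA2 and STE2 lay 1.13 to 3.23-fold over it. Of the members, 6 were over 2 times background on all 12 arrays in both the sample and the reference channel. AAD14 was the exception, with 7 arrays over that level in the sample and 5 in the reference, so its ratios rest on dim spots. The duplicate spots of a member differed by a median of 0.033 on the log2 scale, as did those of all probes (0.033), and by at most 0.17. With 2 arrays per group, precision is limited by the number of arrays.

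YJR154W had the highest ratio of the members, with a mean log2 ratio of 1.44 ± 0.099 (SD over 12 arrays), or 2.71-fold over the reference. In the first set the arrays gave log2 ratios of 1.59 and 1.36 in cbf1 medium, 1.49 and 1.48 in npl3 medium, and 1.39 and 1.46 in wild-type medium. In the second set they gave 1.38 and 1.49 in bur2 medium, 1.51 and 1.56 in cho2 medium, and 1.28 and 1.29 in wild-type medium. All 12 arrays were thus far above the reference level of 0, with the 2 arrays of the second wild-type medium the lowest. They share the same reference RNA, so the SD over arrays, here and for the other members, leaves out variation of the reference culture. Whether such a ratio reflects the pre-conditioned media or that culture was not tested. The sample signal was 6.99 to 15.2-fold over background and the reference signal 2.39 to 5.85-fold, so the reference RNA also gave a measurable level. RNA of whole cultures does not tell a larger share of expressing cells from more RNA per cell.

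AAD10, the neighbour of YJR154W, came second, at 1.22 ± 0.086 (SD over 12 arrays), or 2.33-fold over the reference. Its log2 ratios were 1.31 and 1.30 in cbf1 medium, 1.27 and 1.20 in npl3 medium, and 1.18 and 1.31 in wild-type medium of the first set. They were 1.20 and 1.25 in bur2 medium, 1.20 and 1.22 in cho2 medium, and 0.99 and 1.23 in wild-type medium of the second set. The first array of that last medium was the lowest. The 2 arrays in cbf1 medium were above those of every other medium except the wild-type medium of the first set, with which they overlapped. The signal of AAD10 was 8.98 to 29.8-fold over background in the samples and 4.03 to 10.1-fold in the reference.

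**Figure D1:**
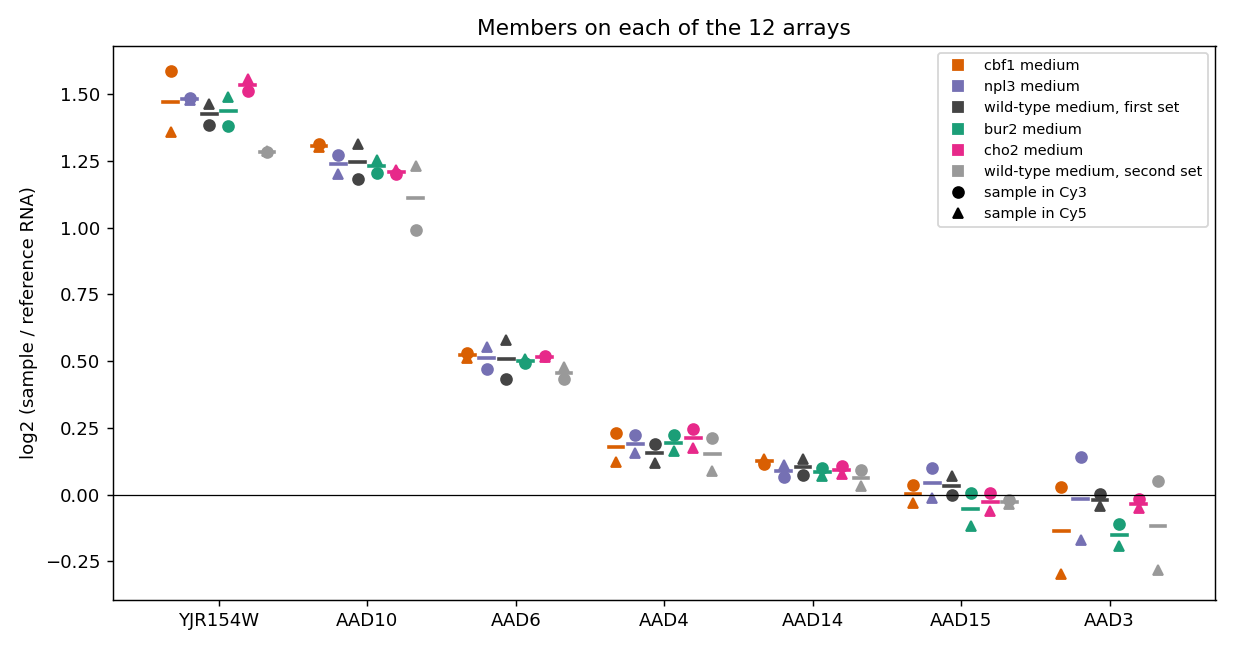
Log2 ratio of sample over reference RNA for each member (y axis) on each of the 12 arrays, coloured by medium, with circles for samples in Cy3, triangles for samples in Cy5 and short lines for group means of 2 arrays. YJR154W and AAD10 sit near 1.44 and 1.22, AAD6 near 0.50, and the other 4 members between -0.079 and 0.18 on average.

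AAD6, an oxidative-stress gene of the family, was above the reference by less. Its mean log2 ratio was 0.50 ± 0.044 (SD over 12 arrays), or 1.42-fold. Its ratios were 0.53 and 0.51 in cbf1 medium, 0.47 and 0.55 in npl3 medium, and 0.43 and 0.58 in wild-type medium of the first set. They were 0.49 and 0.51 in bur2 medium, 0.52 in both arrays of cho2 medium, and 0.43 and 0.48 in wild-type medium of the second set. The spread over media was no larger than that within the first wild-type medium.

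AAD4, the other family member known to respond to oxidative stress, lay at 0.18 ± 0.050 (SD over 12 arrays), or 1.13-fold over the reference. It was above 0 on all 12 arrays, between 0.090 and 0.25 with a median of 0.18. In each of the 6 groups the array with the sample in Cy3 gave the higher ratio, and its mean was 0.22 with the sample in Cy3 and 0.14 with the sample in Cy5. The group means ran only from 0.15 (wild-type medium of the second set) to 0.21 (cho2 medium).

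The remaining 3 members, for which no role beyond the family name is given here, stayed near the level of the reference. AAD14 lay between 0.031 and 0.13 with a median of 0.095, on dim spots. It was above 0 on all 12 arrays, but on 8 with median centring of each array and 9 in the authors' deposited log2 table. AAD15 lay between -0.12 and 0.099 (median -0.0089), above 0 on 5 arrays and below on 7. AAD3 varied most among these 3, between -0.30 and 0.14 (median -0.046), above 0 on 4 arrays. Its mean was 0.015 with the sample in Cy3 and -0.17 with the sample in Cy5, a difference between dyes of -0.19. That is larger than the difference between the highest and the lowest group mean of AAD3 (0.14), so the ratios of this gene moved with the dye more than with the medium.

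In the order of the mean log2 ratios, YJR154W and AAD10 overlapped slightly, with ranges of 1.28 to 1.59 and 0.99 to 1.31 over the 12 arrays. AAD6, with 0.43 to 0.58, overlapped with no other member. The ranges of AAD4, AAD14, AAD15 and AAD3 overlapped with each other. Ratios are each relative to the reference, so this order is one of differences and not of transcript levels. In all, 5 of the 7 members were above 0 on every array, as were 19.4% of all gene probes, and none was below 0 on every array, as 15.2% were. The median of the 7 mean log2 ratios was 0.18, beside -0.0033 over all probes. Past 1.7-fold, the fold limit of the study, and above 0 on every array were 2 members, YJR154W and AAD10, and 17 probes in all (0.266%). No member was past that limit and below 0 on every array, as were 5 probes (0.0783%). As the members were chosen on these ratios, nothing is read from those shares.

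**Figure D2:**
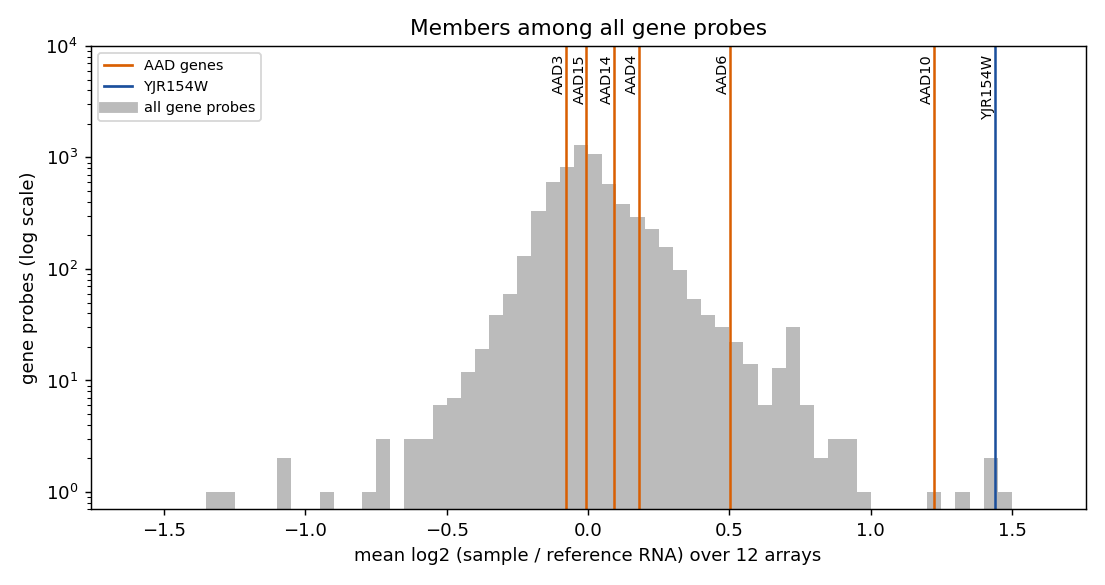
Mean log2 ratio of sample over reference over 12 arrays (x axis) for all 6388 gene probes, as a histogram on a log count axis, with a line for each member. YJR154W and AAD10 lie at 1.44 and 1.22, beyond nearly all probes, and AAD3, AAD15, AAD14 and AAD4 lie within the main body.

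By mean ratio to the reference, YJR154W ranked 2 and AAD10 ranked 5 of 6388 probes, and AAD6 ranked 105. The other 3 probes of the first 5, singled out after their values were seen, were BIO5 (1.47), BIO4 (1.43) and BIO3 (1.33), a transporter and enzymes of biotin synthesis. Across the 12 arrays, with the fitted dye difference taken out, the ratio of YJR154W correlated with those of BIO5, BIO4 and BIO3 at r = -0.25, -0.42 and -0.15 (12 arrays that share one reference). AAD10 had r = 0.33, 0.083 and -0.33 with the same probes. All of these lay inside the range from -0.68 to 0.68 that holds all pairs of probes between the 5th and the 95th percentile.

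The ratios of the highest members were alike in both orientations of the dyes. The mean of YJR154W was 1.44 with the sample in Cy3 and 1.44 with the sample in Cy5. AAD10 had 1.19 and 1.25, and AAD6 had 0.48 and 0.52. The absolute difference between dyes had a median of 0.066 over all probes.

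**Figure D3:**
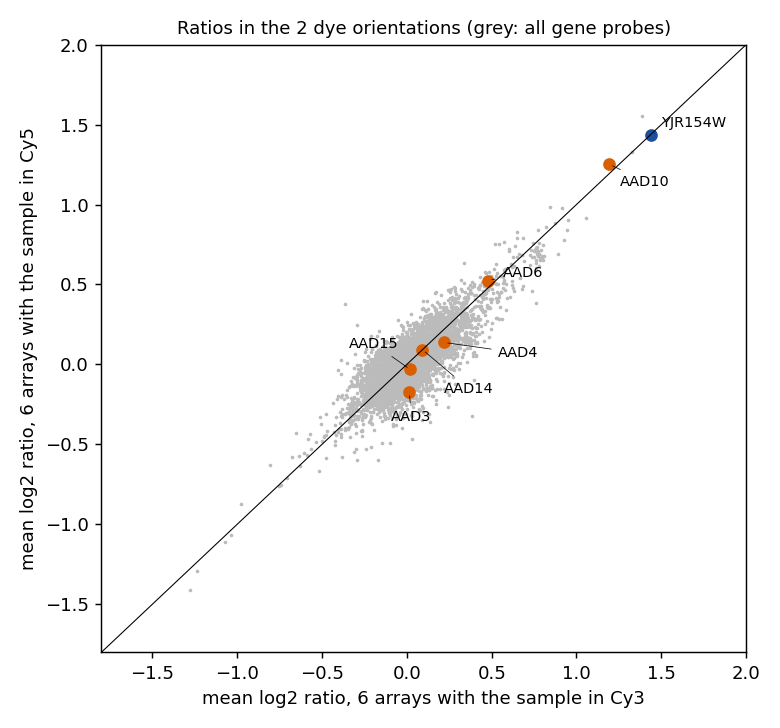
Mean log2 ratio over the 6 arrays with the sample in Cy3 (x axis) and the 6 with the sample in Cy5 (y axis), for all gene probes (grey), the AAD genes (orange) and YJR154W (blue), with the line of equality. YJR154W lies on the line at 1.44, and AAD3 lies below it, at 0.015 and -0.17.

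Whether the pre-conditioned medium of a deletion strain changed these genes relative to medium of wild-type cells was tested in limma over all 6388 probes, with a term for the dye, two-sided and with Benjamini-Hochberg adjustment. The largest difference of a member was that of YJR154W in cho2 medium. Its log2 ratios were 1.51 and 1.56 in cho2 medium, against 1.28 and 1.29 in wild-type medium, and the arrays did not overlap. The difference was 0.25 ± 0.072 (SE, n = 2 arrays per group), or a 95% interval of 0.084 to 0.41, and did not pass over all probes (limma adjusted p = 1.00, unadjusted p = 0.00824). YJR154W also lay higher without overlap in bur2 medium (0.15 ± 0.072) and npl3 medium (0.058 ± 0.072), with limma adjusted p = 1.00 in both. With 1 array left out these differences ranged from 0.086 to 0.21 in bur2 medium and from 0.011 to 0.10 in npl3 medium. The comparisons of bur2 and cho2 medium share their wild-type arrays, which gave the lowest ratios of YJR154W in the series. The mean effect of the deletion-strain media on YJR154W differed by -0.15 ± 0.088 (SE) between the first and the second set, which did not pass (limma adjusted p = 1.00).

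No member passed the limit of 0.05 in any of the 4 media, where 0% of all probes did. The smallest adjusted p of a member was 0.999 in limma, and 1 of the 28 tests of members, that of YJR154W in cho2 medium, had an unadjusted p under 0.05. In all, 83 probes were under that level in cbf1 medium, 180 in npl3 medium, 240 in bur2 medium and 122 in cho2 medium. Each count lies below the share of 0.05 of all probes that chance alone would give. The test may thus be cautious in these 4 media, and a high adjusted p does not show that a member was unchanged. AAD6 lay higher without overlap in bur2 medium (0.046 ± 0.044) and in cho2 medium (0.061 ± 0.044). Members so separated numbered 2 of 7 in bur2 medium, where 9.67% of all probes were, and 2 in cho2 medium (7.62%). There was 1 in npl3 medium (7.36%) and 0 in cbf1 medium (5.2%). In bur2 and cho2 medium they were the same 2 genes, AAD6 and YJR154W. Both comparisons use the same wild-type arrays, which also gave the lowest group mean of AAD6 (0.46), so these counts are not independent. No member was lower without overlap. Of all probes, 5.32% were so in cbf1 medium, 7.17% in npl3 medium, 9.25% in bur2 medium and 9.36% in cho2 medium.

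For AAD10 the differences were 0.059 ± 0.067 in cbf1 medium, -0.0098 ± 0.067 in npl3 medium, 0.12 ± 0.067 in bur2 medium and 0.098 ± 0.067 in cho2 medium (SE, n = 2 arrays per group), within the spread between arrays. AAD3 ranged from -0.11 ± 0.087 in cbf1 medium to 0.083 ± 0.087 in cho2 medium. AAD4, AAD14 and AAD15 differed by between -0.031 and 0.060 in the 4 media. The median over the 7 members was 0.021 in cbf1 medium (0.00075 over all probes), 0.0047 in npl3 medium (0.0013), 0.042 in bur2 medium (-0.0010) and 0.061 in cho2 medium (1.9e-06). All 28 intervals lay within 1.7-fold, from -0.31 (AAD3 in cbf1 medium) to 0.41 (YJR154W in cho2 medium), but the offset added to the signals draws ratios toward 0 and dim AAD14 most.

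**Figure D4:**
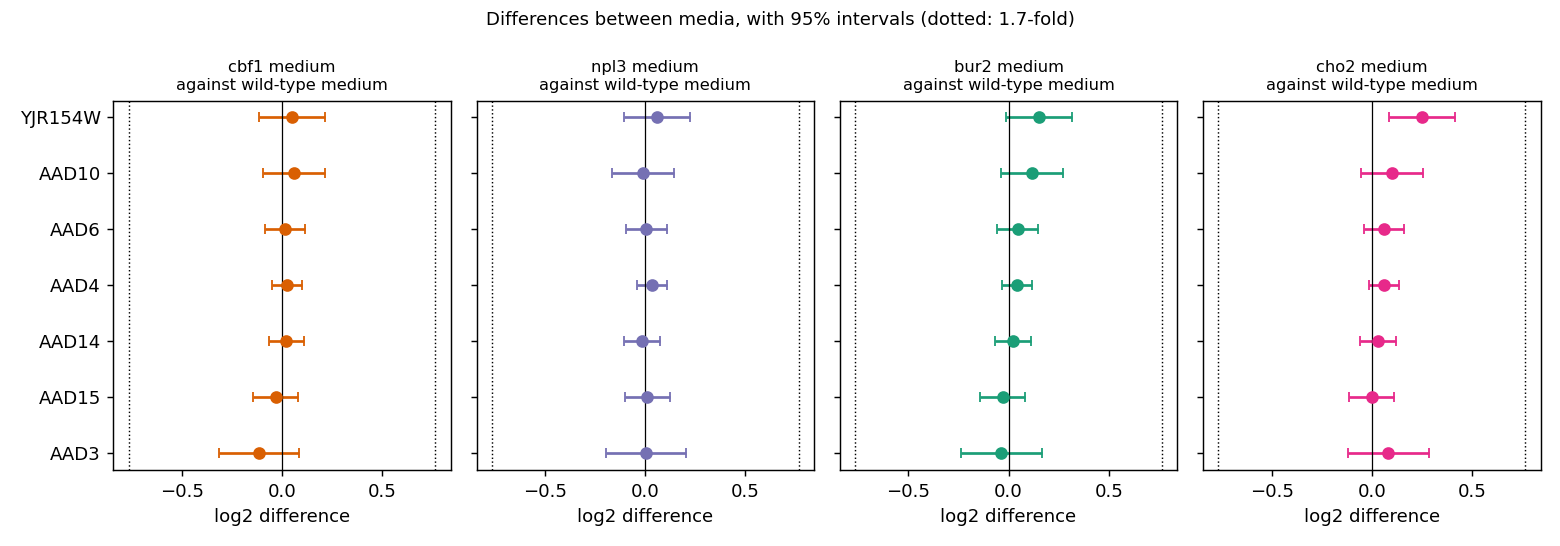
Log2 difference of each member between a deletion-strain medium and the wild-type medium of its set (x axis), with 95% intervals from limma (bars), dotted lines at 1.7-fold. The intervals span 0 except that of YJR154W in cho2 medium (0.084 to 0.41), and all lie within the dotted lines.

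The deletion-strain media of a set were also compared with each other. Between cbf1 and npl3 medium limma called 2 of 6388 probes (0.0313%), the iron genes SIT1 and TIS11, and none of the members. The members differed by between -0.12 (AAD3) and 0.069 (AAD10), with adjusted p = 1.00 for each. AAD10 and AAD14 were higher in cbf1 medium without overlap, as were 8% of all probes, and none was lower so, as 6.79% were. Between bur2 and cho2 medium 0% of probes were called, with 531 at an unadjusted p under 0.05 and no member among them, and the smallest adjusted p of a member was 0.774. YJR154W (-0.099 ± 0.072), AAD3 (-0.12 ± 0.087) and AAD6 (-0.016 ± 0.044) were lower in bur2 medium without overlap, as were 12.8% of all probes (-0.16 to -0.034 for YJR154W with 1 array left out), and none was higher so, as 15.5% were.

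Between the sets the ratios of each member overlapped. The mean log2 ratio of YJR154W was 1.46 ± 0.081 in the first set and 1.42 ± 0.12 in the second (SD, 6 arrays each), and that of AAD10 was 1.26 ± 0.058 and 1.18 ± 0.095. The other members differed between sets by between -0.012 (AAD4) and 0.063 (AAD15), with a median of 0.041 over the 7 members and 0.0048 over all probes. With no offset the median over the members was -0.030. No member was higher or lower on all 6 arrays of the first set, whereas 1.96% of all probes were higher on all 6 arrays of the first set and 1.46% lower. For the wild-type media alone, YJR154W averaged 1.42 ± 0.054 in the first set and 1.28 ± 0.0039 in the second (SD, 2 arrays each), a difference of 0.14, and AAD10 1.25 ± 0.094 and 1.11 ± 0.17.

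The genes around the members had lower ratios than YJR154W and AAD10. From the RefSeq table, up to 2 nearest measured genes on each side of a member gave 20 genes that are no members (AAD3 and AAD15, at chromosome ends, had them on 1 side). None was past 1.7-fold with one sign on every array, as were 0.266% of all probes on the higher and 0.0783% on the lower side, so a count of 0 is near the background. Their mean log2 ratios ran from -0.18 (PEX6, of peroxisome biogenesis, beside AAD14) to 0.12 (SNO2, of vitamin B6 metabolism, placed at AAD14 by the table), with a median of -0.018. The number of the SNO2 probe lies between those of SNZ3 and DDI3 at AAD6, so which copy it reads is not settled. On chromosome X, YJR154W (1.44) and AAD10 (1.22) lay next to each other. PGU1, a pectin-degrading enzyme before them, had -0.017 ± 0.061 (SD over 12 arrays), and DAL5, an allantoate transporter, had -0.081 ± 0.047. After them, THI11, of thiamine synthesis, had -0.17 ± 0.084 and the hexose transporter gene HXT16 had -0.11 ± 0.041. THI11 and HXT16 have close copies elsewhere, and the numbers of the probes that carry their names follow directly on that of AAD4, so which copies these probes read is not settled. The mean ratios of YJR154W and AAD10 were thus over 1 log2 unit above those of PGU1 and DAL5, and also above those of the THI11 and HXT16 probes. The median sample signals of PGU1, THI11 and HXT16 were only 2.01, 2.04 and 1.92-fold over background.

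AAD6 (0.50) was the highest at its locus. On one side lay SNZ3 (0.084 ± 0.046), of vitamin B6 metabolism, and DDI3 (0.010 ± 0.043). On the other lay the amino acid permease gene AGP3 (-0.0068 ± 0.023) and DAK2 (0.013 ± 0.015), a dihydroxyacetone kinase gene. DDI3, AGP3 and DAK2 were on dim probes, with median sample signals under 2 times background. The offset draws their ratios toward 0, so this contrast rests mainly on SNZ3. AAD4 (0.18) was also above its neighbours. These were YDL242W (-0.0020 ± 0.029), YDL241W (-0.034 ± 0.059), SOR2 (-0.025 ± 0.059) and the maltose permease gene MPH2 (0.023 ± 0.037). YDL242W and MPH2 were on dim probes. AAD14 (0.092) lay below the SNO2 probe, whose copy is not settled, and above PEX6, DDI2 and RPD3. PEX6 was below 0 on all 12 arrays, as far from 0 as AAD4. The other neighbours of AAD14 were DDI2 (0.013 ± 0.032), on a dim probe (1.28-fold over background), and the histone deacetylase gene RPD3 (-0.020 ± 0.086). AAD3 had RDS1 at -0.049 ± 0.12 and the alcohol dehydrogenase gene ADH7 at -0.035 ± 0.090. AAD15 had the sulfatase gene BDS1 at -0.010 ± 0.066 and YOL163W at -0.019 ± 0.038, the latter on a dim probe (1.74-fold over background).

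**Figure D5:**
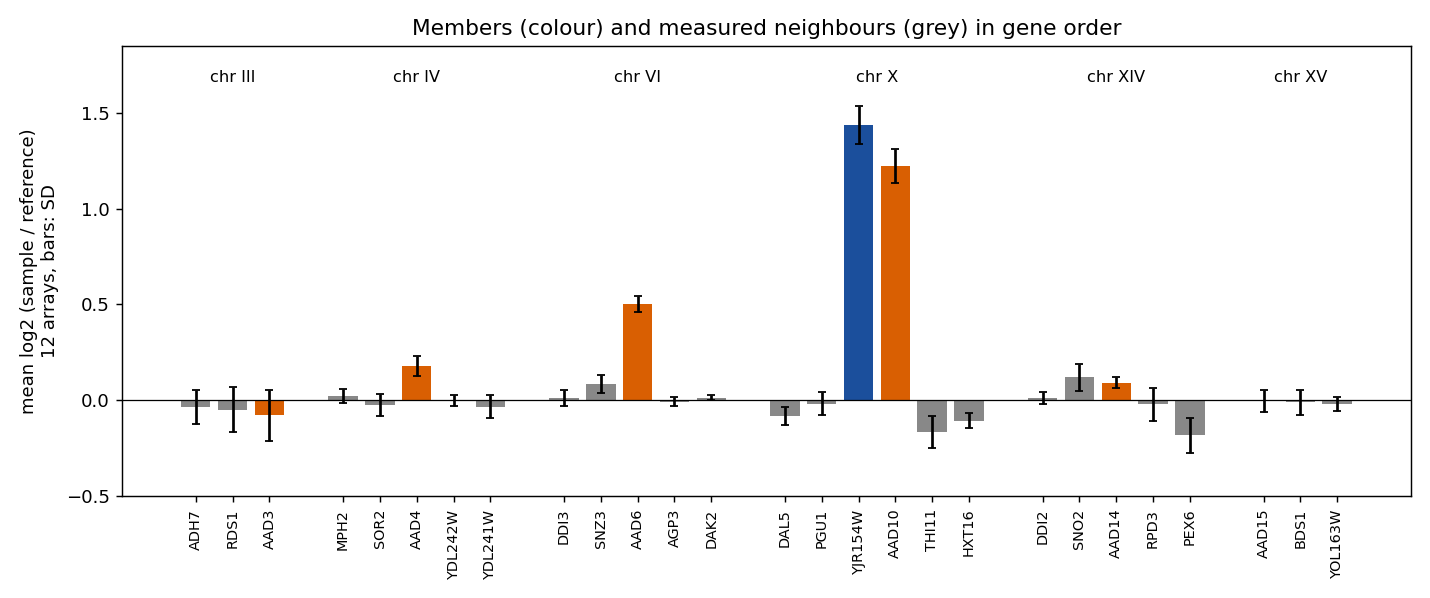
Mean log2 ratio of sample over reference over 12 arrays (y axis, bars from 0 with SD) for the members (colour) and their nearest measured neighbours (grey) in gene order along each chromosome. On chromosome X only YJR154W (1.44) and AAD10 (1.22) stand out, and the 20 neighbours of all loci lie between -0.18 and 0.12, with THI11, HXT16 and SNO2 placed by gene name although the copies their probes read are not settled. Several of the neighbours have dim probes.

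Other genes of related function were counted in the same way, against all probes, of which 0.266% were past 1.7-fold higher, 19.4% above 0 and 15.2% below 0 on every array. A list of this size with none past 1.7-fold is near that background. Of 9 other aldo-keto reductases, none was past 1.7-fold, 1 was above 0 on every array and 2 below, and the median was -0.091 (-0.0033 over all probes). The highest was YPL088W, a putative aryl-alcohol dehydrogenase outside the AAD naming (0.082 ± 0.052, SD over 12 arrays), followed by ARA1, a D-arabinose dehydrogenase, at -0.061 ± 0.13. The lowest were the reductase gene YDL124W (-0.41 ± 0.19) and the aldose reductase gene GRE3 (-0.19 ± 0.17). No gene of this list passed in any of the comparisons between media.

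In the Ehrlich pathway, which turns amino acids into fusel alcohols and includes the aromatic ones, none of 20 genes was past 1.7-fold (0.266% of all probes were), none was above 0 on every array (19.4%), and 6 were below (15.2%). The median was -0.098. With the darkest 25% of probes left out, 15 of the genes remained, with a median of -0.097. The highest were the branched-chain aminotransferase gene BAT1 (0.16 ± 0.097) and THI3 (0.046 ± 0.042), and the lowest the alcohol dehydrogenase genes ADH2 (-0.29 ± 0.095) and ADH5 (-0.25 ± 0.064). ARO10, the decarboxylase of aromatic keto acids, had -0.10 ± 0.058 on a dim probe. No gene of this list passed between media.

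Among 25 measured genes of the Yap1 and electrophile response (26 named), none was past 1.7-fold (0.266% of all probes were), 2 were above 0 on every array (19.4%) and 10 below (15.2%), with a median of -0.046. Much of this list is dim. With the darkest 25% of probes left out, 14 of the genes remained, with a median of -0.074. The highest was YNL134C, a reductase gene, at 0.32 ± 0.14, followed by the quinone reductase gene LOT6 at 0.10 ± 0.053. The lowest were GRE2 (-0.45 ± 0.15), a reductase of methylglyoxal, and the drug pump gene SNQ2 (-0.40 ± 0.14). YAP1 itself had -0.017 ± 0.090, and its target TRR1, thioredoxin reductase, had -0.0013 ± 0.061. The old yellow enzyme gene OYE2 had -0.26 ± 0.074. AAD4 and AAD6, linked to the same factor, lay above 0 on all 12 arrays, and the lists gave no calls between media. These list medians kept their sign under each scaling of the arrays that was tried.

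Across the 12 arrays, with the fitted dye difference taken out, the members varied little, so their patterns carry limited information. YJR154W and AAD10 correlated at r = 0.55, YJR154W and AAD6 at r = 0.68, and YJR154W and AAD4 at r = 0.75. AAD10 and AAD4 had r = 0.033, and AAD6 and the dim AAD14 had r = 0.70. Over all pairs of probes, which share arrays and reference, r ran from -0.68 at the 5th to 0.68 at the 95th percentile. With the dye difference left in, YJR154W had only r = 0.39 with AAD4, 0.57 with AAD6 and 0.51 with AAD10. AAD10 and AAD4 then had r = -0.29, and AAD6 and AAD14 had r = 0.60. Of 212 named probes whose group means spanned at least 0.3, those most like the mean profile of AAD3, AAD4, AAD6, AAD10 and AAD15 were NIP7 (r = 0.88), RPF2 (0.87), SER3 (0.84), SAS10 (0.84), NOP7 (0.84) and LOC1 (0.84). For YJR154W alone the highest were RPF2 (r = 0.58), NOP7 (0.57), NOP13 (0.57), NIP7 (0.53), FPR4 (0.53) and SAS10 (0.51), which lie inside the range of ordinary pairs. Both sets are the highest of 212 candidates. A range for single pairs therefore cannot tell how unusual the values for the mean profile are. The group means of the members themselves spanned 0.060 (AAD4) to 0.25 (YJR154W).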

How the data were processed

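For each array the authors deposited the intensity and local background of every spot in Cy5 and Cy3, extracted with Imagene and not normalized. They also deposited log2 ratios per spot, normalized by print-tip loess without background subtraction and corrected for gene-specific dye bias, and a table of their own comparisons (log2 ratios and adjusted p-values from limma 2.12.0), which was not used. Intensities were used here. An array holds 6388 gene probes in duplicate (12776 of 15552 spots). With limma 3.58.1 (R 4.3.3), background correction used normexp (offset 50), arrays were normalized by loess (span 0.3) with weight 0 for the 2776 control spots, each ratio was set as sample over reference from the labelled dyes, and duplicates were averaged.

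A single limma fit of all 12 arrays took a mean per group plus a term for dye orientation. In it, 6 comparisons within sets were tested, with Benjamini-Hochberg adjustment over 6388 probes and a limit of 0.05. Between 170 and 507 units of median signal per dye lay over a background of 43.1 to 53.0. Of the probes, 5326 have a symbol in the platform annotation. The files name no genome build, so no coordinates are given. No sequences of probes, promoters or proteins were analysed here. The fit was also run on simulated ratios with independent noise on each array. That run cannot show how the fit behaves where arrays share variation.

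The members and gene lists were chosen with earlier results of these data known. Named genes are all members, the 2 highest and 2 lowest of each list, probes called between media, the 6 most alike in pattern, up to 2 nearest measured neighbours per side, and mating genes as a check of the strain. BIO3, BIO4, BIO5, ARO10, YAP1, TRR1 and OYE2 were added after their values were seen. Set against the intensities, 11 columns of the deposited log2 ratios gave sample over reference and that of the first cho2 array the reverse (r = -0.91), so it was turned. With labelled dyes, the lowest correlation between any 2 arrays was r = 0.54. Alternatives were no background subtraction, no offset, print-tip loess, median centring, the authors' log2 ratios, leaving out the darkest 25% of probes, no dye term, a block for the replicate number, a fit of 1 set alone, and each array left out in turn.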

Additional observations from a re-analysis of the deposited data

How the results depend on the processing

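The 2 members past 1.7-fold on every array, YJR154W and AAD10, numbered 2 under every scaling and with any array left out. No member passed in any of the 6 comparisons under any alternative. With no offset, which leaves dim spots wider, the mean log2 ratio was 1.78 for YJR154W (3.43-fold), 1.38 for AAD10, 0.63 for AAD6, 0.26 for AAD4 and 0.18 for AAD14, and the median difference between the sets was -0.030, the sign turning. In the deposited log2 table YJR154W stood at 1.51 and AAD10 at 1.26. The correlation of YJR154W with AAD10 was r = 0.37 with median centring. Over the alternatives, YJR154W in cho2 medium against wild-type medium ranged from 0.22 to 0.28 with an adjusted p in limma of 0.383 to 1.00.

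Counts over all probes moved, none of them counting a member. For bur2 medium against cho2 medium limma called 922 probes with median centring and 3 in the deposited log2 table, in place of 0. For cbf1 medium against npl3 medium it called 1 in the deposited log2 table, 1 with a replicate block in each set, and 0 with no offset, print-tip loess, median centring, no dye term or the 6 arrays of the set, in place of 2. The causes were not tested. With 1 array left out the counts ranged from 0 to 2 in cbf1 medium, 0 to 35 in npl3 medium (35 with array 2 of its wild-type medium left out), 0 to 26 in bur2 medium (26 without its first array), 0 to 1 in cho2 medium, 0 to 3 between cbf1 and npl3 medium and 0 to 6 between bur2 and cho2 medium. A group left with 1 array is assumed to vary like the others. The labels do not say that array numbers pair arrays, and the numbers coincide with the dye. With the dye taken out, differences between the arrays of a group correlated between groups at r = -0.76 to 0.54, and the replicate block changed no call of a member. Taking out the dye by centring also removes any replicate effect shared by all groups, so that range cannot settle a pairing. Were the arrays of a group the same RNA, averaging them would leave no residual degrees of freedom and no test. The low signal of AAD14 limits its ratio.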
